A study of Mus musculus with 40 samples.

Results

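The effect of orchiectomy on astrocyte enrichment was followed sample by sample in mice on a high-fat diet (HFD). Hypothalami came from mice with the Aldh1l1 eGFP-L10a transgene, whose astrocytes make L10a, a protein of the large ribosomal subunit, fused to GFP under control of Aldh1l1 regulatory sequence. Each of the 13 sample numbers used gave a pull-down library of the tagged ribosomes (IP in the labels) and a library of the supernatant that the pull-down left (SN). Orchiectomised mice on HFD (GDX-HFD) gave 7 numbers and 14 libraries, and sham-operated mice on HFD (Sham-HFD) gave 6 numbers and 12 libraries. These 26 libraries were chosen by the diet and surgery in their labels, out of 40 libraries with 20 numbers in the series. The remaining 14 libraries, of 7 numbers of sham mice on chow, stand beside some values for comparison only. All mice carried the transgene and ate their diet for 4 weeks. No orchiectomised mice on chow were analysed here, so the surgery was compared on 1 diet. The sources used here give neither strain nor age. A sample number may stand for 1 mouse or for a pool, which the labels leave unsaid, so the spread behind each p-value may be partly technical.

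Translating ribosome affinity purification captures messages that are bound to tagged ribosomes. A message made in astrocytes is thus richer in the pull-down, and messages of many other cells, though not of all, are richer in the supernatant. Enrichment, as used below, is the log2 level in the pull-down minus the log2 level in the supernatant of the same number. Hypothalamic astrocytes clear glutamate and potassium, feed neurons and oxidise fatty acids. Orchiectomy removes the testes and with them most circulating androgen and the oestrogen made from it. Neurons of the arcuate nucleus that make neurokinin B and dynorphin sense these steroids and are released from their restraint after gonadectomy. Levels are given as CPM (counts scaled to a common library size), scaled by TMM, the trimmed mean of M-values. The group means of Aldh1l1, Rbfox3, Emcn and Flt1 are CPM by library totals alone, without TMM. In QuantSeq libraries each message is read by a tag at its 3′ end, and CPM depends little on gene length.

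By Aldh1l1 and Rbfox3 the label of the preparation held in both surgery groups. Aldh1l1, the folate enzyme that defines the tagged cells, had a mean of 153 CPM in the sham and 149 CPM in the orchiectomised pull-downs, against 5.81 and 6.43 CPM in the supernatants. Rbfox3, which encodes the neuronal nuclear antigen NeuN, had 9.25 and 12.2 CPM in the pull-downs against 202 and 191 CPM in the supernatants. Some markers of other cells were richer in the pull-down in both groups. Their median enrichments in sham and orchiectomised mice were 1.62 and 2.28 (endothelial), 1.08 and 0.84 (mural), 1.10 and 0.95 (fibroblast) and 2.47 and 2.41 (choroid plexus). Medians of neuron, oligodendrocyte, microglia, red blood cell and tanycyte markers were negative in both. The depth was 7714834 to 20792175 counts per pull-down and 8739276 to 12931869 counts per supernatant. None of 6 library measures (total count, mitochondrial share and share of Gm42418 in each fraction) separated the surgeries. Over 1716 splits the smallest exact two-sided permutation p was 0.123, and the smallest adjusted p was 0.738. Gm42418, a transcript that overlaps ribosomal RNA sequence, took more than 10% of the counts in 3 pull-downs, those of sham number 1 and orchiectomised numbers 11 and 22.

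Sample numbers 1, 6, 11 and 22 stood apart before any comparison of the surgeries. The median enrichment of 22 astrocyte markers was 2.84 in sham number 1 and 3.12, 3.35 and 2.78 in orchiectomised numbers 6, 11 and 22. The other 5 sham numbers lay between 4.54 and 5.44 and the other 4 orchiectomised numbers between 4.56 and 5.21. Low numbers were thus 1 of 6 in the sham and 3 of 7 in the orchiectomised group, so they weigh unevenly on the comparison. These numbers had more astrocyte message in the supernatant, where the summed level of the markers was 7248, 6766, 6094 and 7506 CPM in numbers 1, 6, 11 and 22, against 2576 to 3801 CPM in the others. In their pull-downs the summed level of 13 endothelial markers was 1458, 1926, 1655 and 2499 CPM, against 421.5 to 700.4 CPM in the others. The results that these numbers touch are given with and without them, and that set of numbers was chosen after their values were seen. In bulk RNA, a larger share of cells of a type and more RNA per cell cannot be told apart.

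**Figure D1:**
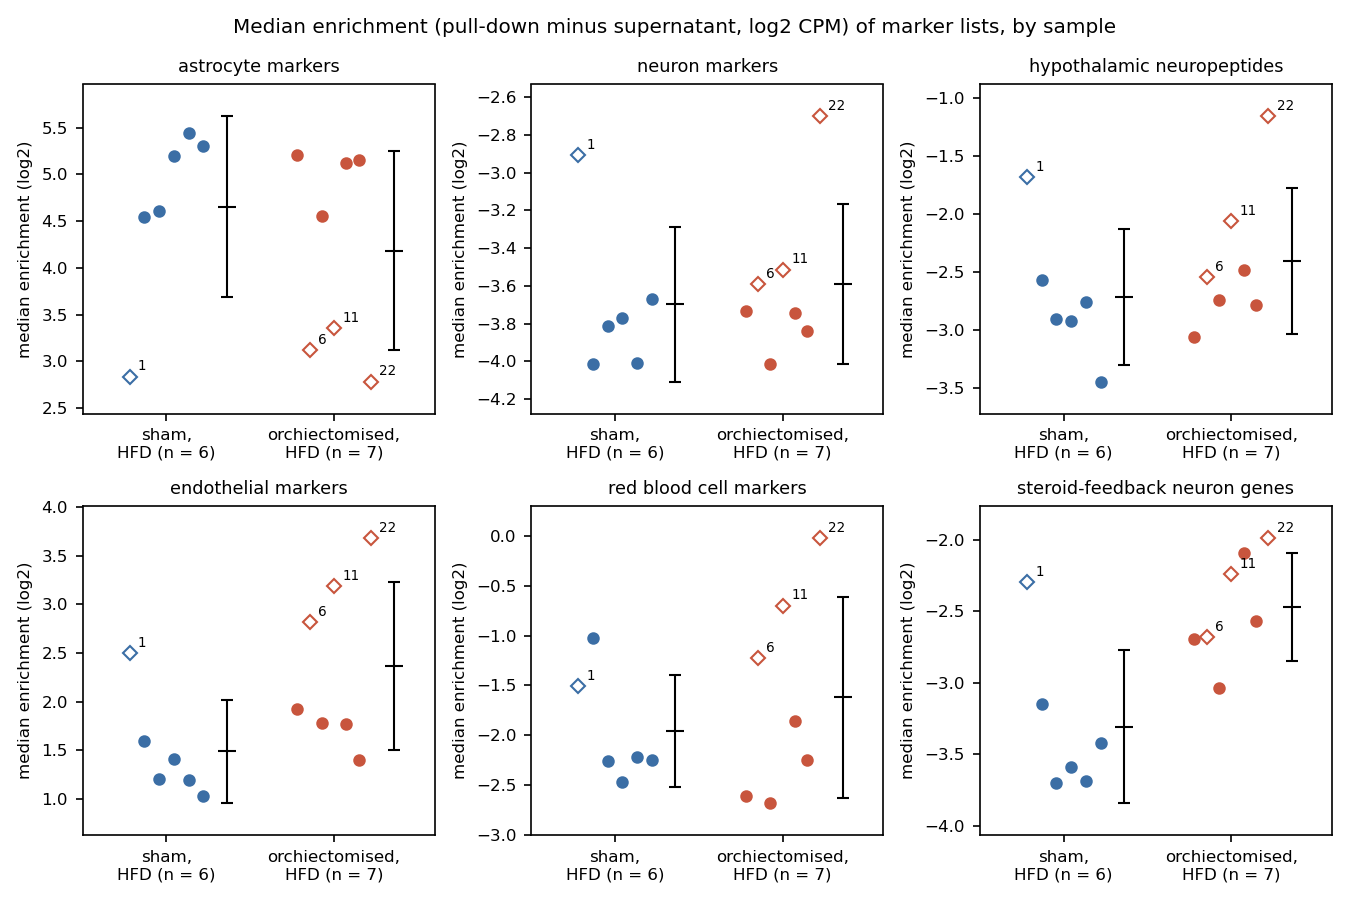
Each panel plots the median enrichment (log2, pull-down minus supernatant) of 1 gene list for every sample number, with sham mice on HFD in blue (n = 6) and orchiectomised mice on HFD in red (n = 7). Open diamonds mark numbers 1, 6, 11 and 22, and the bar beside each group is the mean ± SD. These 4 numbers are lowest for astrocyte markers, between 2.78 and 3.35, and highest for endothelial markers, between 2.50 and 3.68.

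The enrichment profile as a whole was shared by the surgeries. Of 15183 genes tested, sham mice had 5477 (36.1%) enriched and 5833 (38.4%) depleted in the pull-down at an edgeR adjusted p under 0.05, and orchiectomised mice had 5535 (36.5%) and 5909 (38.9%). Shared higher genes numbered 5057, which is 92.3% of the sham and 91.4% of the orchiectomised list. Shared lower genes numbered 5460, or 93.6% and 92.4% of the lists. Genes higher in 1 group and lower in the other numbered 0. Across genes, which are not independent replicates, the mean per-sample enrichments of the groups had a Pearson r of 0.9802. The median absolute difference between the fitted enrichments was 0.188 on the log2 scale.

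**Figure D2:**
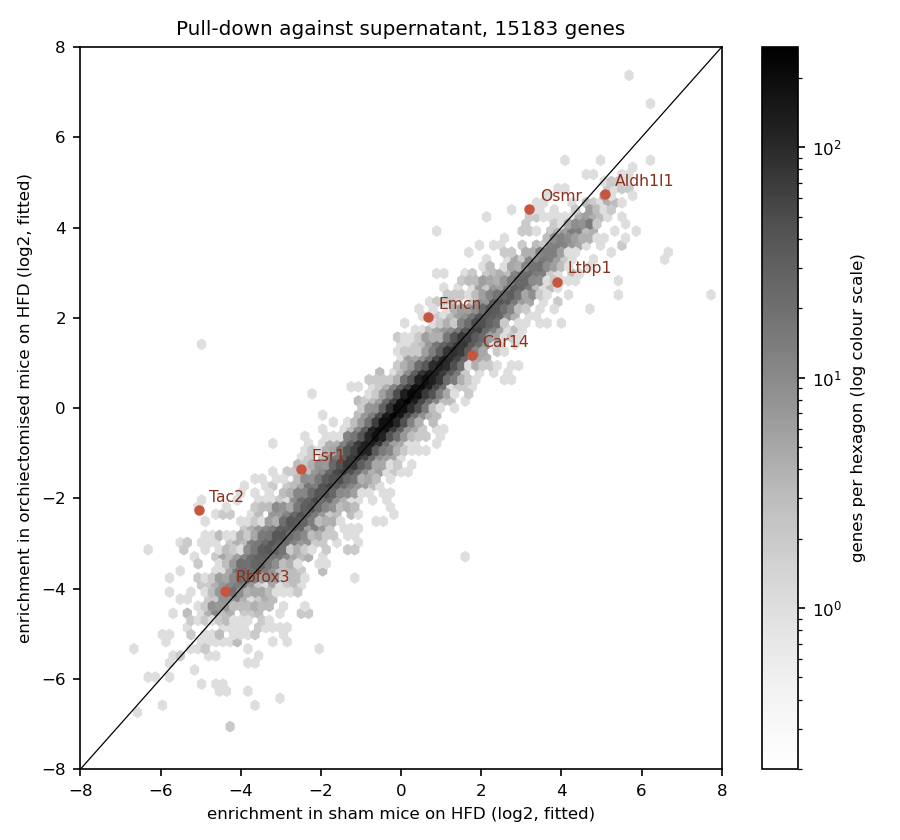
Hexagons count genes by their fitted enrichment (log2) in sham mice on HFD on the x axis and in orchiectomised mice on HFD on the y axis, on a log colour scale, with 9 of 15183 genes outside the axes. The line marks equal enrichment. Most genes lie along it, and Tac2 sits above it at −5.04 against −2.27.

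No gene passed the test of the surgery effect on enrichment. With edgeR's quasi-likelihood test and the sample number as a block, 0 of 15183 genes (0%) had an adjusted p under 0.05, and the smallest adjusted p was 0.988. At an unadjusted p under 0.05 there were 422 genes (2.78%), a smaller share than that threshold gives by chance. Of the 422 genes 249 were higher (1.64%) and 173 lower (1.14%) in orchiectomised mice. Scaled by library totals without TMM, this split was 366 higher and 102 lower, and the median of all genes moved from −0.01 to 0.05. On the same numbers DESeq2 called 1 gene, Tac2, and limma voom called 0. The per-sample enrichments of the groups did not overlap for 11 genes (0.0724%), 8 higher (0.0527%) and 3 lower (0.0198%). Full separation is the most extreme outcome over 1716 splits of the numbers, with an exact two-sided permutation p of 0.00117. Chance alone would thus separate a larger share of genes than was found. Full separation of a gene named below is therefore a description and tests nothing. The precision was moderate: the median SE of a difference was 0.258, and 95% intervals lay within 1 log2 unit of 0 for 9571 of 11629 genes with at least 5 CPM in a fraction (82.3%). With all 13 numbers and this fit, every difference in enrichment named below failed the correction over all genes, and is given as a value with its SE.

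Genes of steroid-feedback neurons had positive differences for nearly the whole list. Of 10 tested members 9 had a positive difference, with a median of 0.95, against 48.8% of all genes and a median of −0.01. An unadjusted p under 0.05 with a positive sign was found for 5 of the 10 (Tac2, Esr1, Pdyn, Prlr and Tacr3), where 1.64% of all genes did. The list was drawn up with earlier results of these libraries known, and its members are mostly genes of neurons. Their median enrichment was −3.50 in sham and −2.54 in orchiectomised mice. Both groups had these messages mostly in the supernatant. Without numbers 1, 6, 11 and 22 the median difference was 0.92 and 7 of 10 were positive. In the second deposited table, on a log2(signal + 1) scale that understates low genes, it was 0.50 with 9 of 10 positive.

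Tac2 encodes neurokinin B, a peptide of arcuate steroid-feedback neurons, and lies on chromosome 10 at 127724478 to 127731768, on the plus strand. In the pull-down it had 2.60 CPM in sham number 1, 0.78 in 9, 0.86 in 13, 0.53 in 16, 1.03 in 18 and 1.27 in 20. The orchiectomised pull-downs had 9.60 CPM in number 2, 1.499 in 6, 2.45 in 10, 11.9 in 11, 9.89 in 14, 10.5 in 17 and 5.49 in 22. In 5 of the 7 orchiectomised pull-downs the level was above every sham pull-down, and numbers 6 and 10 lay below sham number 1. Enrichment lay between −6.19 and −3.68 in sham mice (median −4.98) and between −4.13 and −0.99 in orchiectomised mice (median −2.20), so the groups overlapped through sham number 1 and orchiectomised number 6. The difference of Tac2 enrichment was 2.78 ± 0.52 (SE), with an edgeR unadjusted p of 6.93e-05 and an adjusted p of 0.988. DESeq2 gave Tac2 a difference of 2.78 and an adjusted p of 0.000229, and the adjusted p ranged from 0.000229 to 1 over its 27 alternatives. Without the 4 low numbers the difference of Tac2 was 3.19 ± 0.44 (edgeR adjusted p = 0.118).

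The supernatant carried little of the Tac2 difference by value. It had 29.3 to 51.8 CPM of Tac2 in sham mice (median 34.8) and 19.8 to 63.3 CPM in orchiectomised mice (median 25.9), with full overlap. The fitted difference of the level was 2.65 ± 0.49 in the pull-down and −0.20 ± 0.24 in the supernatant. Enrichment of Tac2 in sham mice on chow lay between −5.65 and −3.82 (n = 7), over nearly the same span as in sham mice on HFD. Neuron markers, measured beside it, had a median difference in enrichment of 0.14 with 14 of 20 positive, and −0.01 with 9 of 20 positive without the 4 low numbers. Their summed level in the pull-down was 1005 to 1787 CPM in sham and 1009 to 1927 CPM in orchiectomised mice, with no marker at a group mean of 0, and their part in the Tac2 result was not tested.

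Esr1 encodes oestrogen receptor alpha and lies on chromosome 10 at 4611593 to 5005614, on the plus strand. Its pull-down level was 0.78 to 2.08 CPM in sham mice (median 1.13) and 2.33 to 4.81 CPM in orchiectomised mice (median 2.83). These pull-down ranges did not overlap, and the highest sham value was again number 1. In the supernatant Esr1 had 6.11 to 7.77 CPM (median 6.97) and 5.22 to 10.6 CPM (median 8.62), with overlap. Enrichment of Esr1 was −3.05 to −1.63 in sham and −1.91 to −0.61 in orchiectomised mice, a difference of 1.14 ± 0.29 (SE; edgeR unadjusted p = 0.000966, adjusted p = 0.988). Only sham number 1 lay inside the orchiectomised range. The difference was 1.11 ± 0.31 without the 4 low numbers, and sham mice on chow had Esr1 enrichments of −3.36 to −2.38.

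**Figure D3:**
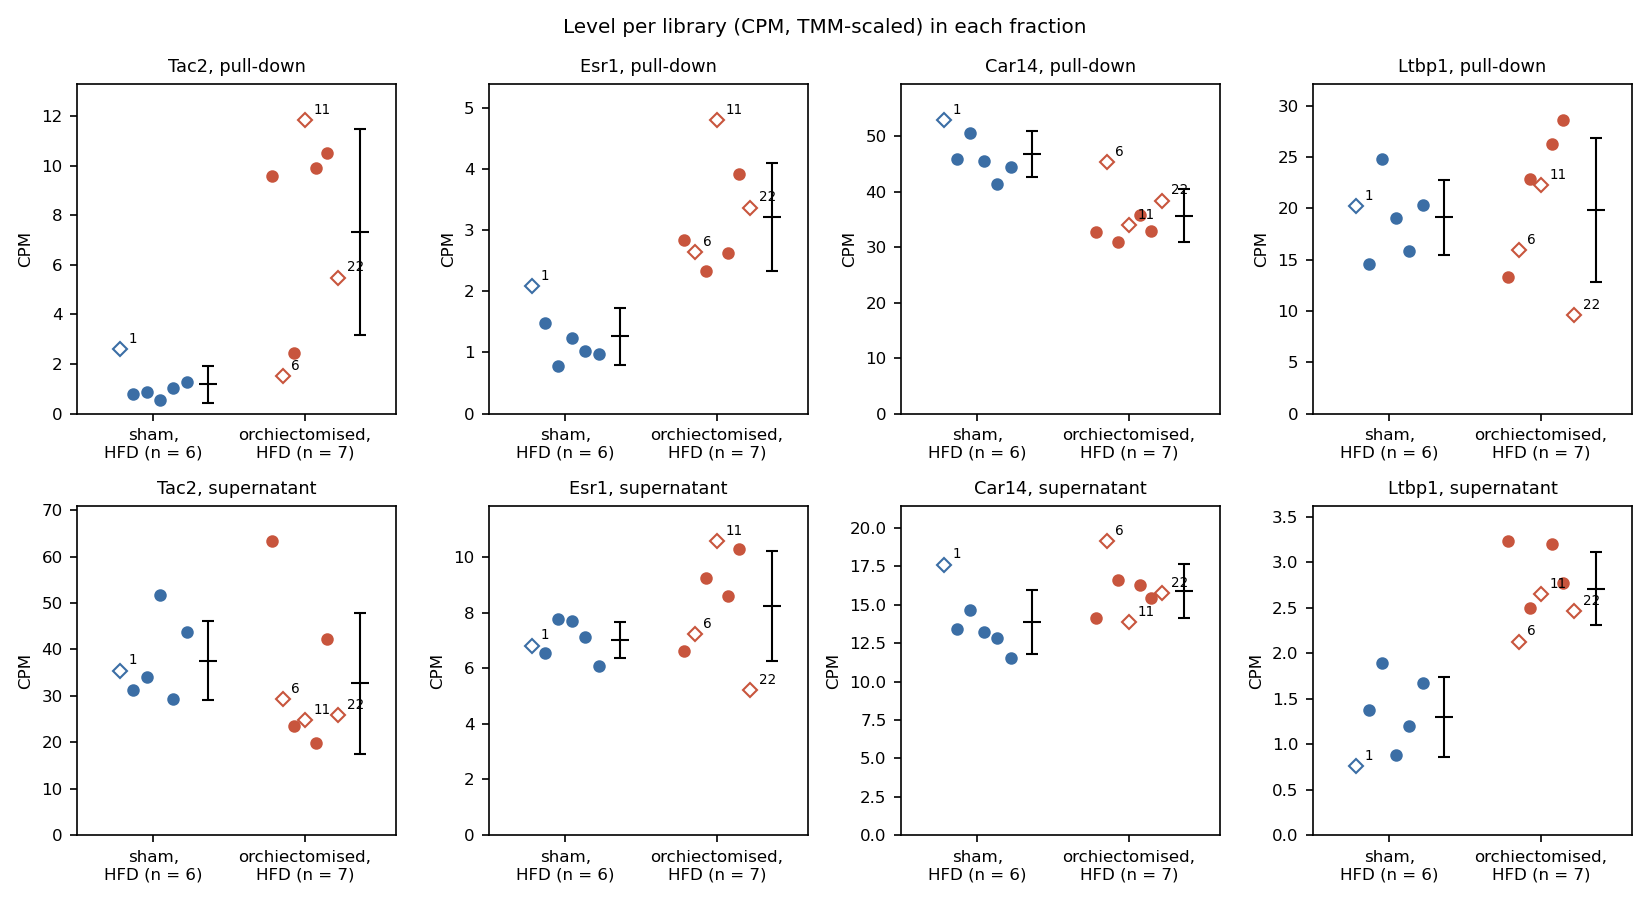
The level (CPM, linear axis from 0) of 4 genes is plotted for every pull-down (top) and supernatant (bottom), with sham mice on HFD in blue (n = 6), orchiectomised mice on HFD in red (n = 7), mean ± SD beside each group and open diamonds for numbers 1, 6, 11 and 22. Tac2 and Esr1 differ mainly in the pull-down (medians of 0.94 against 9.60 CPM and 1.13 against 2.83 CPM), and Ltbp1 mainly in the supernatant (1.29 against 2.65 CPM).

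Further members of the steroid-feedback list had differences near 1. Pdyn, the dynorphin precursor gene, had enrichments of −3.46 to −1.49 in sham mice (median −2.37) and −2.08 to −0.76 in orchiectomised mice (median −1.41), a difference of 0.95 ± 0.28. Prlr, the prolactin receptor gene, had −3.71 to −1.97 (median −3.24) against −2.88 to −1.25 (median −2.27), a difference of 0.95 ± 0.29. The difference of Tacr3, the gene of the receptor for neurokinin B, was 1.19 ± 0.41. In Pdyn and Prlr the groups overlapped, and for both the highest sham value was number 1 and the highest orchiectomised value number 22, 2 of the low numbers. Without the 4 low numbers the differences were 0.88 ± 0.27 for Pdyn and 0.97 ± 0.23 for Prlr. Of the remaining members, Oprk1, the kappa opioid receptor gene, had 0.66 ± 0.32, Nr5a2 0.96 ± 0.67, Pgr, the progesterone receptor gene, 0.26 ± 0.38, Tac1, the substance P gene, −0.34 ± 0.49 and Gnrh1, the gonadotropin-releasing hormone gene, 0.05 ± 1.07.

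The hypothalamic neuropeptide list, which shares Tac1 with the feedback list, had a smaller median difference. Of 28 tested genes 23 had a positive difference with a median of 0.34, and 0 had an unadjusted p under 0.05. Pomc, the melanocortin precursor gene, had 0.66 ± 0.34, Adcyap1, the PACAP gene, whose counts differ between the deposited tables, 0.58 ± 0.28, Npy 0.41 ± 0.30, Cartpt 0.77 ± 0.47 and Agrp −0.12 ± 0.66. The highest value, 1.46 ± 0.99, was that of Nmu, the neuromedin U gene, chosen after its value was seen. Without orchiectomised number 22 alone the difference was 0.46 for Cartpt and 0.39 for Pomc, and without sham number 20 alone it was 0.18 for Npy. Npy and Agrp encode peptides of appetite-driving arcuate neurons. Without the 4 low numbers 16 of 28 were positive and the median was 0.08. It was 0.12 without orchiectomised number 22 alone and 0.58 without sham number 1 alone. The summed level of the neuropeptide list in the pull-down moved with those numbers, at 1377, 735.7, 947.4 and 1594 CPM in numbers 1, 6, 11 and 22 against 455.6 to 612.6 CPM in the others. A smaller median without these 4 numbers was thus largely built in.

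**Figure D4:**
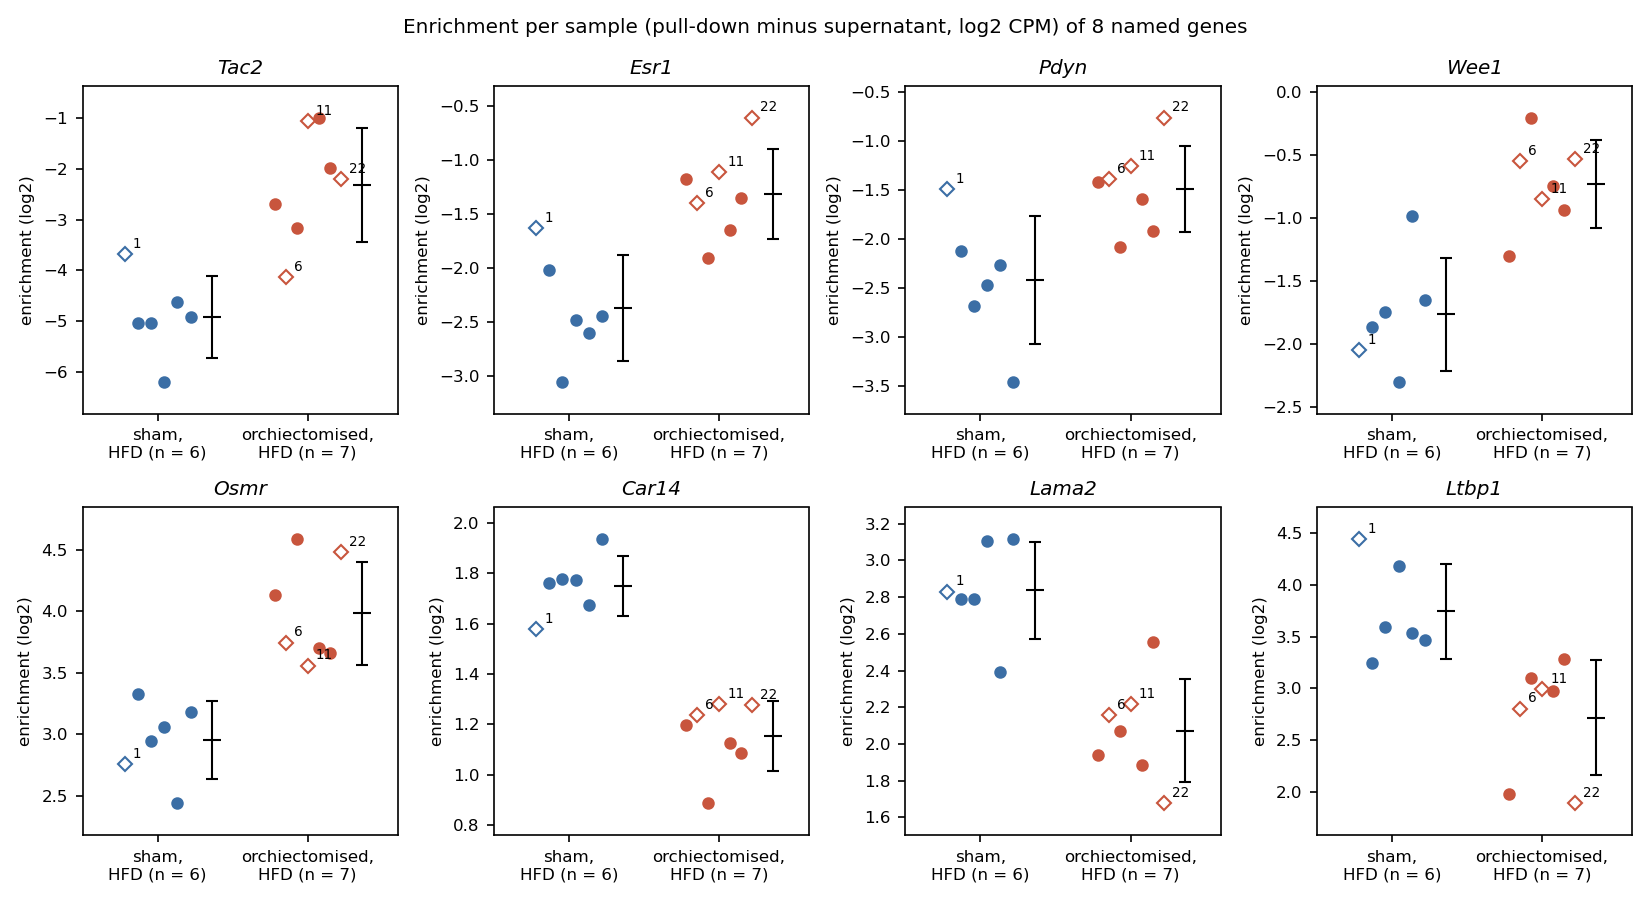
Enrichment (log2, pull-down minus supernatant) of 8 genes is plotted for every sample number, with sham mice on HFD in blue (n = 6), orchiectomised mice on HFD in red (n = 7), mean ± SD beside each group and open diamonds for numbers 1, 6, 11 and 22. The groups separate fully for Car14 (1.58 to 1.93 against 0.89 to 1.28) and Osmr (2.44 to 3.33 against 3.56 to 4.58) and overlap for Tac2, Esr1, Pdyn, Wee1, Lama2 and Ltbp1. Over all genes, full separation was no more frequent than by chance.

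Astrocyte markers were less enriched after orchiectomy by value, and the value was smaller without the 4 low numbers. Of 22 markers 0 had a positive difference, with a median of −0.48 and a range of −0.87 to −0.06. None had an unadjusted p under 0.05, where 2.78% of all genes did. Slc1a2, the main glutamate transporter gene of astrocytes, had enrichments of 4.58 to 6.16 in sham mice (median 5.81) and 3.93 to 6.14 in orchiectomised mice (median 5.27), a difference of −0.57 ± 0.36. Aldh1l1 had −0.34 ± 0.52 and Gfap, the intermediate filament gene of astrocytes, −0.06 ± 0.28. Every one of these ranges overlapped between the groups. Without numbers 1, 6, 11 and 22 the median of the list was −0.11 with 6 of 22 positive, and Aldh1l1 and Gfap turned to 0.12 and 0.18. These numbers were picked as the lowest in this same list, and 3 of them were orchiectomised. A smaller difference without them was therefore built in by the choice and tests nothing. Without the numbers rich in Gm42418 (1, 11 and 22) the median was −0.41 with 0 of 22 positive. Leaving out sham number 1 alone gave a median of −0.79, with 10 of 22 at an unadjusted p under 0.05, where 898 of 15422 genes were. Leaving out orchiectomised number 22 alone gave −0.32.

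The astrocyte markers were also compared within each fraction. The median difference of the level was −0.09 in the pull-down, with 4 of 22 positive, and 0.38 in the supernatant, with 22 of 22 positive, where 52.9% and 54.6% of all genes were positive. In the supernatant the water channel gene Aqp4 had 0.93 ± 0.42 and Slc1a2 0.56 ± 0.35, and in the pull-down they had 0.32 ± 0.09 and −0.04 ± 0.11. Aqp4 was thus 1 of the 4 positive genes in the pull-down and does not stand for the list. There 2 of the 22 markers had an edgeR unadjusted p under 0.05 with a positive sign and 3 with a negative sign. Of all genes 3.58% and 2.54% did. The summed supernatant levels given above were highest in the 4 low numbers, 3 of which were orchiectomised.

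Astrocyte function lists followed the markers. Of 14 potassium, water and gap junction genes 1 had a positive difference, with a median of −0.37, and 6 of the 14 (Aqp4, Gja1, Gjb6, Atp1b2, Slc4a4 and Mlc1) are astrocyte markers too. Fatty acid oxidation and ketone body genes were positive in 4 of 29 cases (median −0.18), astrocyte receptors in 3 of 19 (−0.19) and antioxidant genes and metallothioneins in 3 of 22 (−0.18). Ppara, the nuclear receptor that switches on fatty acid oxidation, had enrichments of 4.70 to 6.07 in sham mice (median 5.38) and 3.31 to 6.12 in orchiectomised mice (median 4.43), a difference of −0.96 ± 0.40 with overlap, and of −0.46 without the 4 low numbers. Its level differed by −0.10 ± 0.08 in the pull-down and by 0.91 ± 0.37 in the supernatant. Acadl, a mitochondrial acyl-CoA dehydrogenase gene, had −0.59 ± 0.32. In the pull-down alone 7 of the 29 fatty acid oxidation genes had an unadjusted p under 0.05 with a negative sign, where 2.54% of all genes did. Without the 4 low numbers the medians were −0.16, −0.07, −0.03 and −0.10 for the 4 lists in that order. Without the numbers rich in Gm42418 they were −0.33, −0.18, −0.14 and −0.15. Without sham number 1 alone they were −0.62, −0.31, −0.40 and −0.30.

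Endothelial markers had positive differences throughout the list. All 13 of 13 were positive with a median of 0.94, and 6 of 13 had an unadjusted p under 0.05, where 1.64% of all genes did so with that sign. Emcn, the endomucin gene, had enrichments of −0.11 to 2.14 in sham mice (median 0.28) and 0.52 to 3.68 in orchiectomised mice (median 1.84), a difference of 1.34 ± 0.50. Pecam1, an endothelial adhesion gene, had −0.39 to 2.22 (median 0.34) against 0.81 to 2.62 (median 1.17), a difference of 1.08 ± 0.42. The groups overlapped for both genes, and sham number 1 was the highest sham value. Ly6c1 had 1.13 ± 0.44, Itm2a 1.05 ± 0.45, Slco1a4, a blood-brain barrier transporter gene, 1.08 ± 0.47, and Cldn5, a tight junction gene, 0.78 ± 0.34.

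The endothelial difference lay in the pull-down by value. The median difference of the level was 0.83 in the pull-down, with 13 of 13 positive, and −0.07 in the supernatant, with 4 of 13 positive. No endothelial marker was at 0: the group means in the pull-down lay between 4.79 CPM for Emcn in sham mice and 375 CPM for Flt1 in orchiectomised mice. The list followed the 4 low numbers, whose summed levels are given above. Without them 12 of 13 were positive and the median was 0.48. An unadjusted p under 0.05 with a positive sign was then found for 4, and for 154 of 15382 genes. The remaining 4 orchiectomised numbers had summed endothelial levels of 549.4 to 700.4 CPM in the pull-down, against 421.5 to 655.1 CPM in the remaining 5 sham numbers, and these ranges overlapped. Without the numbers rich in Gm42418 (1, 11 and 22) all 13 were positive and the median was 0.78. Such a p was then found for 7 of the 13, and for 184 of 15215 genes.

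Red blood cell genes depended wholly on the low numbers for their sign. All 5 of 5 had a positive difference, with a median of 0.40, and without the 4 numbers 0 of 5 were positive, with a median of −0.26. Orchiectomised number 6 had summed red blood cell levels of 6737 CPM in the pull-down and 14730 CPM in the supernatant, against 230.1 to 2010 CPM and 1617 to 4154 CPM in the other numbers. Oligodendrocyte markers were positive in 10 of 14 cases (median 0.29, and 0.05 without the 4 numbers) and microglia markers in 12 of 15 (median 0.12, and −0.10 without them). Choroid plexus markers were positive in 0 of 5 cases, with a median of −0.25. Mural cell markers were split at 5 of 10, with a median of −0.05.

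**Figure D5:**
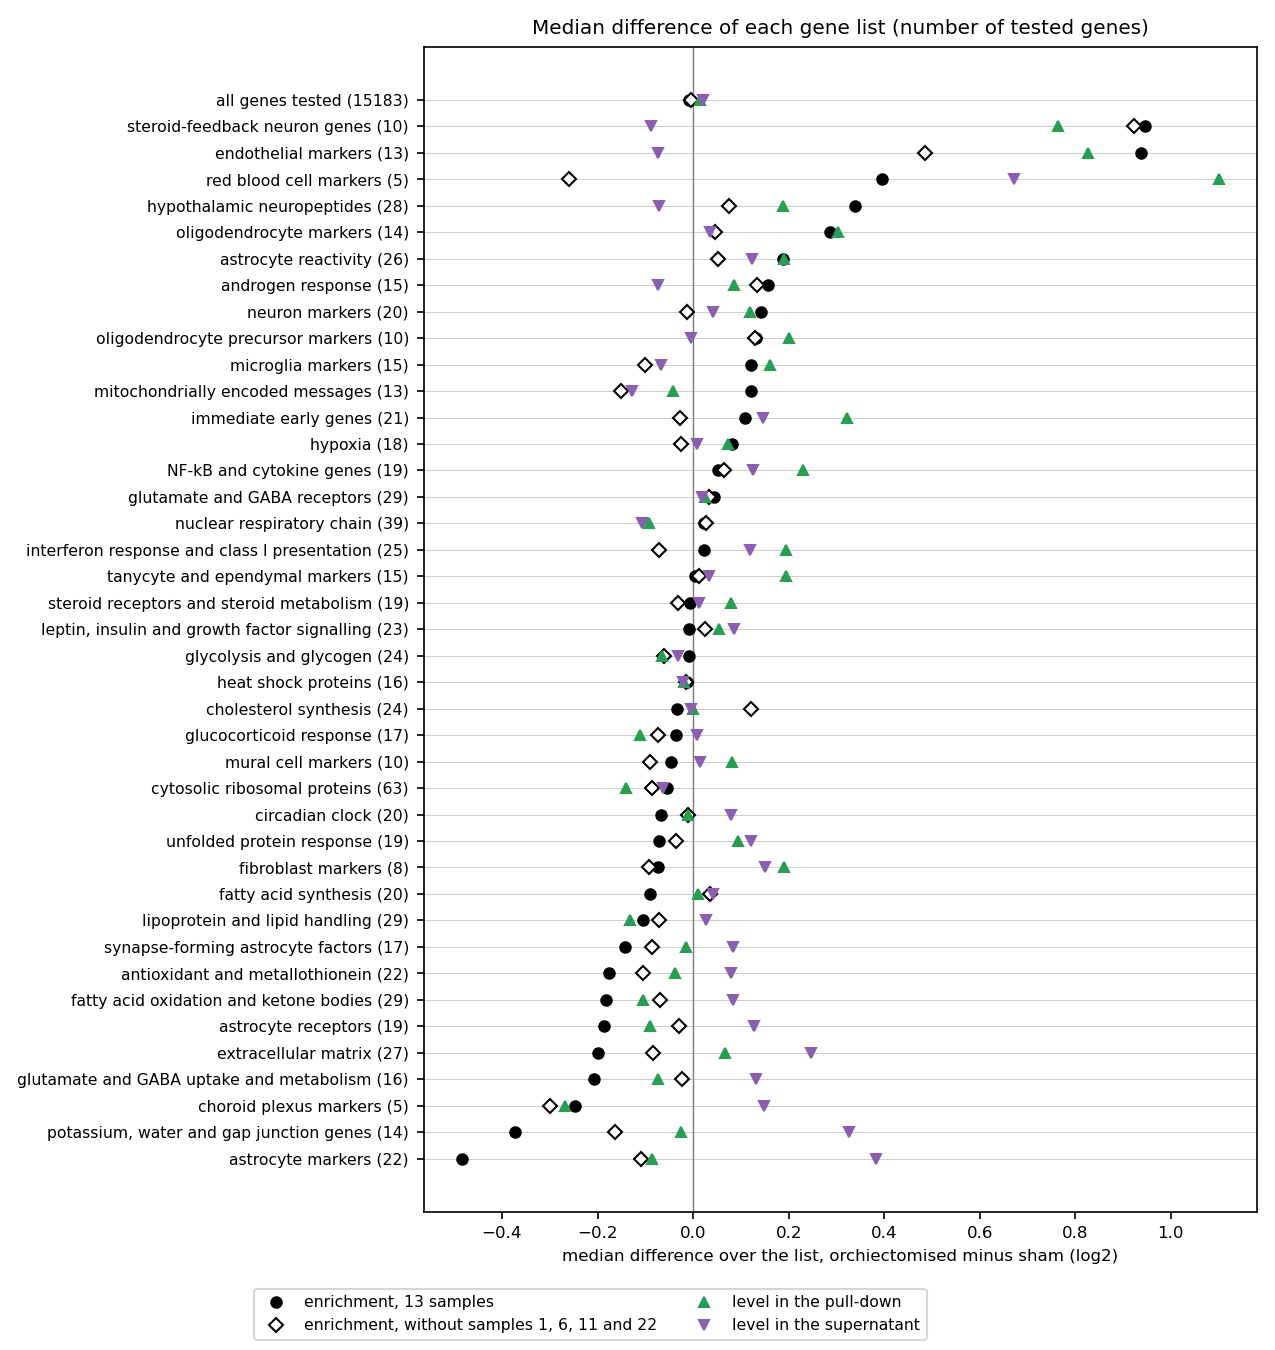
For each of 40 gene lists with at least 5 tested genes, and for all genes, the x axis gives the median difference between orchiectomised and sham mice on HFD (log2) for enrichment (black circles), for enrichment without numbers 1, 6, 11 and 22 (open diamonds), for the level in the pull-down (green triangles) and for the level in the supernatant (purple triangles). The steroid-feedback list moves little without the 4 numbers, from 0.95 to 0.92, while endothelial markers move from 0.94 to 0.48 and astrocyte markers from −0.48 to −0.11. The 4 numbers were picked as lowest for astrocyte markers, so the move of that list follows from the choice. They were also the highest for endothelial markers, so the move of the endothelial list was largely built in too.

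Of the 12 genes with the smallest p and a positive difference, among those with at least 5 CPM in a fraction, 4 were the steroid-feedback genes Tac2, Esr1, Pdyn and Prlr. Wee1, a kinase gene that holds cells before mitosis and is under clock control, lies on chromosome 7 at 110122046 to 110143286. Its enrichment was −2.30 to −0.98 in sham mice (median −1.80) and −1.30 to −0.20 in orchiectomised mice (median −0.75), a difference of 1.05 ± 0.23 (edgeR unadjusted p = 0.000322). Sham number 18 and orchiectomised number 2 gave the overlap. The level of Wee1 differed by 0.91 ± 0.21 in the pull-down and by −0.10 ± 0.12 in the supernatant. Sham mice on chow had Wee1 enrichments of −1.52 to −0.95, which lie across the lower orchiectomised and the upper sham values.

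Osmr, the oncostatin M receptor gene, was the member of the astrocyte reactivity list nearest to a call and lies on chromosome 15 at 6813577 to 6874969. Its enrichment was 2.44 to 3.33 in sham mice (median 3.0) and 3.56 to 4.58 in orchiectomised mice (median 3.74), with no overlap, and the difference was 1.21 ± 0.34. Sham mice on chow had Osmr enrichments of 2.19 to 3.45. In the supernatant Osmr was rare, at 0.49 to 1.23 CPM in sham and 0.11 to 0.59 CPM in orchiectomised mice, so its enrichment rests on few counts there. In the pull-down it had 5.68 to 9.37 and 6.13 to 14.8 CPM, with overlap. Vwc2, a secreted BMP-binding protein gene, also separated fully, at −4.37 to −3.92 against −3.67 to −3.02 (difference 0.81 ± 0.21), and chow values of −3.96 to −3.48 reached into both ranges. Exo5, a DNA exonuclease gene, separated at −0.56 to −0.08 against 0.06 to 0.91 (0.78 ± 0.22). Acvr1c, the activin receptor gene for ALK7, had 0.69 ± 0.17, Cyth1 0.73 ± 0.23, Actn1, the actinin gene, 0.70 ± 0.23, and Rxrg, a retinoid receptor gene, 0.66 ± 0.22.

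Of the genes with a negative difference, Car14 had the smallest p. It encodes a membrane carbonic anhydrase and lies on chromosome 3 at 95897768 to 95904691, on the minus strand. Enrichment of Car14 was 1.58, 1.76, 1.78, 1.77, 1.67 and 1.93 in sham numbers 1, 9, 13, 16, 18 and 20. In orchiectomised numbers 2, 6, 10, 11, 14, 17 and 22 it was 1.20, 1.24, 0.89, 1.28, 1.13, 1.09 and 1.28. All orchiectomised values were below all sham values, and the difference was −0.60 ± 0.13 (SE; edgeR unadjusted p = 0.000318, adjusted p = 0.988). It was −0.71 ± 0.18 without the 4 low numbers. Both fractions contributed, with −0.38 ± 0.10 in the pull-down and 0.21 ± 0.11 in the supernatant. Sham mice on chow spread from 0.30 to 2.11, across both groups on HFD.

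Lama2, a laminin chain gene of the extracellular matrix list, had enrichments of 2.39 to 3.12 in sham mice (median 2.81) and 1.68 to 2.55 in orchiectomised mice (median 2.07), a difference of −0.78 ± 0.19, and the overlap was through sham number 18 and orchiectomised number 17. Its estimated counts differ between the 2 deposited tables, so its value is uncertain. Ltbp1, which encodes a protein that binds latent TGF-beta, had 3.25 to 4.44 (median 3.56) against 1.89 to 3.29 (median 2.97), a difference of −1.08 ± 0.29. Its supernatant level was 0.76 to 1.89 CPM in sham and 2.13 to 3.23 CPM in orchiectomised mice without overlap, a level difference of 1.06 ± 0.22, whereas its pull-down level differed by 0.06 ± 0.22. Of the matrix list, which does not hold Ltbp1, 9 of 27 genes were positive and the median was −0.20. Lama2 was the 1 member with an unadjusted p under 0.05 and a negative sign, where 1.14% of all genes did so.

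Of the other genes of smallest p with a negative difference, Sult1a1, a sulfotransferase gene that acts on phenols and steroids, had 0.40 to 2.29 in sham mice (median 2.04) and 0.40 to 1.63 in orchiectomised mice (median 0.83), a difference of −0.87 ± 0.29. Its level differed in both fractions, by −1.34 ± 0.31 in the pull-down and −0.46 ± 0.19 in the supernatant. The low sham value of 0.40 was number 1, which put the sham range across nearly the whole orchiectomised range. Cacng4, a gene for a regulator of AMPA-type glutamate receptors, had −1.19 to −0.46 (median −0.79) against −1.36 to −1.16 (median −1.28), a difference of −0.47 ± 0.14 with overlap. Its level differed by −0.51 ± 0.09 in the pull-down and by −0.03 ± 0.10 in the supernatant. Ucp3, a mitochondrial carrier gene, had −0.84 ± 0.31, Ttll3 −0.79 ± 0.25, Ginm1 −0.68 ± 0.25, Dhdh −0.59 ± 0.19, D3Ertd751e −0.50 ± 0.17 and Oscp1 −0.46 ± 0.17. Mcm9, a helicase gene, had −0.66 ± 0.25, and its counts also differ between the deposited tables.

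The fraction that carried a difference varied among these 24 genes. Of the 12 with a positive difference, 11 could be fitted in both fractions, and the pull-down difference was the larger in 10. Of the 12 with a negative difference it was the larger in 7, and the supernatant difference in 5 (Lama2, Ltbp1, Ginm1, Ucp3 and Mcm9). All 24 kept their sign without the 4 low numbers, at between 0.731 and 1.24 times their value. The genes were chosen by their p in this comparison, so these counts describe them and test nothing.

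Of 19 genes for steroid receptors and steroid metabolism, a list that shares Esr1 and Pgr with the feedback list, 9 were positive, with a median of −0.01. At an unadjusted p under 0.05 it held Esr1 with a positive and Sult1a1 with a negative sign. Nr3c2, the mineralocorticoid receptor gene, had 0.47 ± 0.24, and Cyp19a1, the aromatase gene, was too low to be tested. The androgen response list was positive in 12 of 15 cases with a median of 0.16, led by Sgk1, a kinase gene that glucocorticoids and androgens induce, at 0.89 ± 0.32. Glucocorticoid response genes, which include Sgk1 too, were positive in 7 of 17 cases with a median of −0.04.

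Of 19 NF-kB and cytokine genes 11 were positive (median 0.05), with 4 at an unadjusted p under 0.05 and a positive sign, where 1.64% of all genes did so. Socs3, a feedback inhibitor gene of cytokine signalling, had 0.94 ± 0.37, the chemokine gene Cxcl12 0.77 ± 0.34, Nfkbia 0.38 ± 0.17 and Icam1, an adhesion gene of endothelium and astrocytes chosen after its value was seen, 0.95 ± 0.44. Without the 4 low numbers 1 of the 19 had such a p, and the difference was 0.25 for Cxcl12 and 0.23 for Nfkbia. Against 48.8% of all genes, astrocyte reactivity genes were positive in 17 of 26 cases (median 0.19, and 0.05 without the 4 numbers), interferon and class I genes in 14 of 25 (0.02), immediate early genes in 15 of 21 (0.11, and −0.03 with 9 of 20 positive without the 4 numbers) and unfolded protein response genes in 8 of 19 (−0.07). Clock genes were positive in 7 of 20 cases, with Wee1 at 1.05 and Ciart, a clock repressor gene, at −0.74 ± 0.28. Cytosolic ribosomal protein genes were positive in 20 of 63 cases with a median of −0.06, and cholesterol synthesis genes in 11 of 24 with a median of −0.03. Their intervals were narrow: 62 of 63 ribosomal protein genes and 23 of 24 cholesterol genes had a 95% interval within 1 log2 unit of 0. Such an interval was found for 10029 of all 15183 genes (66.1%). It was found for only 3 of 22 astrocyte markers, 1 of 13 endothelial markers and 0 of 10 steroid-feedback genes, so those lists were poorly resolved.

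The fractions fitted alone gave 0 calls as well. In the pull-down edgeR called 0 of 13678 genes (0%) with 837 at an unadjusted p under 0.05 (6.12%; 3.58% higher and 2.54% lower in orchiectomised mice), while DESeq2 called 8 and limma voom 0. Among the 8 were Tac2, Esr1, Wee1, Cacng4, Dhdh, Sult1a1 and Cyp4f15, a cytochrome P450 gene chosen after its value was seen. In the supernatant edgeR called 0 of 14231 genes (0%) with 397 at an unadjusted p under 0.05 (2.79%; 1.3% higher and 1.49% lower), and DESeq2 called 2, Sytl4 and Cited1, also chosen after their values were seen. Without the 4 low numbers edgeR called 4 genes in the pull-down, among them Tac2 at 3.14 (adjusted p = 0.0131), and 0 in the supernatant. A call in 1 fraction and not in the other does not show that the fractions differ, which the test on enrichment addresses.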

How the data were processed

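Libraries of 3′ tags (QuantSeq) from pull-down and supernatant were used. Trim Galore 0.6.4, Salmon 1.9.0 and the build GRCm38 are named in the submitters' processing notes. The sources used here state neither the annotation nor how transcripts were summed to genes. The main table holds estimated counts per gene as the authors deposited them, of which 12.7% of the non-zero values were not whole, and these were rounded. A second deposited table holds a signal per gene, named TPM, with sums of 847343 to 1025286 per library, and served as an alternative on a log2(signal + 1) scale. After rescaling each library, it differs from the main table by more than 0.01 counts in 1694 of 26783 shared symbols, so genes named as differing are uncertain.

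Counts were filtered with filterByExpr (minimum count 10), scaled by TMM and fitted with edgeR 4.0.16 (quasi-likelihood, robust) in R 4.3.3, with the sample number as a block and the surgery effect on the pull-down term; each fraction was also fitted alone. Adjusted p-values are Benjamini-Hochberg over all genes tested, called under 0.05. DESeq2 1.42.0 and limma 3.58.1 were alternatives, beside other scalings and filters and leaving out samples. Per-sample enrichment used log2 CPM with a prior count of 2. Positions are from GENCODE M21 (GRCm38), which holds 25300 of 26792 symbols (94.4%). The scripts were tested on simulated data.

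For each sign of the difference, the 12 genes of smallest p were named (at least 5 CPM in a fraction, regular symbol), with up to 3 members of smallest p from each of 41 lists, and 12 fixed genes. Some results are not reported here. Other list members were named after their values were seen. The members and lists were chosen with earlier results of these data known. Library totals (see the report) limit precision mainly for genes under 5 CPM. Precision was also low for some genes at high levels: the median SE was 0.449 for astrocyte markers, against 0.258 for all genes.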

Additional observations from a re-analysis of the deposited data

Results flagged for a closer look

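In 104 sets of per-sample values, 11 values lay apart from the rest of their group by Dixon's criterion, which by chance marks about 1 set in 20. Sham number 1 was the sample most often set apart. It was low in the median enrichment of astrocyte markers (2.84) and high in that of neuron markers (−2.91). Its enrichment of Prlr was high at −1.97 and that of Sult1a1 low at 0.40. In its pull-down, mitochondrial messages took 1.32% and Gm42418 took 18.2% of the counts.

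Orchiectomised number 22 was high in the median enrichment of neuron markers (−2.70) and of microglia markers (−1.25). It was low in the enrichment of Ucp3 (2.31), and mitochondrial messages took 1.63% of the counts in its pull-down. Sham number 20 had the deepest pull-down, with 20792175 counts. The cause of these values was not tested.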

How the results depend on the processing

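Of 3624 values for 135 named genes under up to 27 alternatives each, 3595 kept their direction and side of the threshold, 28 in 12 genes changed direction and 1 (Tac2 with DESeq2) became a call. The cause of these changes was not tested. With a smallest adjusted p of 0.988 in the main fit, most values could hardly change side. Many alternatives also share most of their libraries, and many of the genes were named for a small p. The count of kept values is therefore no test of the results. The number of genes called for enrichment was 0 except with DESeq2 (1) and with astrocyte marker enrichment as a covariate (1). DESeq2 called Tac2, and the covariate fit called Thtpa at −17.98, a gene chosen after its value was seen. In the pull-down the number called was 8 with DESeq2 and 4 without sample numbers 1, 6, 11 and 22 (Tac2, Slc7a11, Phyhd1 and 2900052N01Rik). It was 1 without the numbers rich in Gm42418 (Phyhd1). In the supernatant it was 2 with DESeq2, and 0 to 1 with 1 number left out (1700047I17Rik2 at 10.87, without sham number 18). The values of Thtpa and 1700047I17Rik2 were extreme, since enrichment differences of all genes lay between −5.31 and 6.91 in the main fit. What lies behind them was not tested. With each number left out in turn, 248 to 898 genes had an unadjusted p under 0.05 for enrichment, the highest without sham number 1 and the lowest without orchiectomised number 22.

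Without sample numbers 1, 6, 11 and 22 the difference turned to −0.0786 for Hba-a1, −0.0150 for Tyrobp, −0.26 for Alas2, −0.23 for Hbb-bs, −0.0226 for mt-Co3, 0.12 for Aldh1l1, 0.0432 for Kl, 0.18 for Gfap and −0.38 for Cga. With the covariate it turned to −0.11 for Gm42418, 0.18 for Aldh1l1, 0.17 for Gfap and −0.16 for Cga. The covariate is the median of the astrocyte marker list, which holds Aldh1l1 and Gfap, so their change was partly built in. Without the numbers rich in Gm42418 the difference was −0.0702 for Alas2 and −0.23 for Cga. The deposited signal values gave 0.0029 for Otx2 and 0.11 for Agrp. With 1 number left out it ranged from −0.23 to 0.0870 for Gfap, −0.56 to 0.16 for Agrp and −0.23 to 0.25 for Cga.

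Without the replicate block 0 genes were called and 589 had an unadjusted p under 0.05. As a check of the pairing, deviations of same-numbered pull-down and supernatant had correlations of −0.14 to 0.206, and 3 of 13 libraries correlated best with their own number. The alternative on whole reads from the second table was not run, because its values did not resolve into whole reads. For Adcyap1, Eci1, Nr4a1, Plin4 and Sox10 the second table lists values at 0 and gave no comparison.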
